A study of Mus musculus with 5 samples.

Results

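Integrins and cadherins are the main adhesion receptors by which bone cells hold on to matrix and to each other, and their 49 genes were followed here through 5 clones of Ocy454 cells, an osteocyte-like line from mouse. The genes were taken by name from the array's annotation, as every integrin alpha or beta subunit and every numbered cadherin. This gave 49 of the 23185 named genes, namely 18 integrin alpha subunits, 8 integrin beta subunits and 23 cadherins. Each clone came from a sorted cell, was kept in aMEM with 10% FBS and 1% AA (as the labels write it), was cultured for 7 days at 37 °C without any treatment, and gave 1 Affymetrix array. Per the series' design text, 37 clones had been screened for Sost, the gene of the Wnt inhibitor sclerostin. The high SOST group is clones 12H and 15H, and the low SOST group is clones 4L, 9L and 24L. Each group is thus a few clones of 1 line picked at the ends of a screen, and a clone has no replicate array. Whatever sets a clone apart enters the group it belongs to, and in such bulk RNA fewer cells with a transcript and less transcript per cell cannot be told apart.

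An integrin is a pair of an alpha and a beta subunit that spans the cell membrane. The alpha subunit largely sets the ligand, which is collagen, laminin or a protein with the tripeptide RGD, and the beta tail binds talin and kindlin and so couples matrix to actin. Beta 1 is the shared partner of most alpha subunits, alpha V pairs with several beta subunits, and the beta 2 family belongs to leukocytes. Classical cadherins bind the same or a related cadherin on a neighbouring cell and hold actin through beta-catenin and alpha-catenin. Osteoblasts and osteocytes are known for N-cadherin (Cdh2), a type I cadherin, and cadherin 11 (Cdh11), a type II cadherin first described in osteoblasts.

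The 6 members with the widest spread over the clones, 2 or more log2 units, were Cdh11, Itga10, Itga11, Itgb8, Itga6 and Itga1. The RefSeq promoter table held 31 of the 49 members and 4 of these 6, whose 250 bases before the annotated start are shown because these are the members that set the clones apart. They lie, in build GRCm38.p6, at chr3:96645334-96645583 on the plus strand for Itga10, chr9:62677605-62677854 on the plus strand for Itga11, chr12:119238277-119238526 on the minus strand for Itgb8 and chr13:115101965-115102214 on the minus strand for Itga1. Capitals mark an E-box (CANNTG) or a CCAAT box (CCAAT), each searched on both strands.
Itga10: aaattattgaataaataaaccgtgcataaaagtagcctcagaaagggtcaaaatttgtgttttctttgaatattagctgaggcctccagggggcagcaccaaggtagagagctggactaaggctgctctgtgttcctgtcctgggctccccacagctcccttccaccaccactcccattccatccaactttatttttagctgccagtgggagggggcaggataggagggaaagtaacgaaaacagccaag
Itga11: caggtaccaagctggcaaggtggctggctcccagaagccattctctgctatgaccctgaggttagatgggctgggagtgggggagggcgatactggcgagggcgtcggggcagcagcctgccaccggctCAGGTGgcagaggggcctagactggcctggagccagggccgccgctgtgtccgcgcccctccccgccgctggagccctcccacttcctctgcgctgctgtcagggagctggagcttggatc
Itgb8: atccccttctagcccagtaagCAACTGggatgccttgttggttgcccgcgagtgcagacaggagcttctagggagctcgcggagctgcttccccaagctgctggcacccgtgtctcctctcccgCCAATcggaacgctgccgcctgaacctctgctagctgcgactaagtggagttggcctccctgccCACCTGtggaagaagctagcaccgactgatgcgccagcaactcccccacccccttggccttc
Itga1: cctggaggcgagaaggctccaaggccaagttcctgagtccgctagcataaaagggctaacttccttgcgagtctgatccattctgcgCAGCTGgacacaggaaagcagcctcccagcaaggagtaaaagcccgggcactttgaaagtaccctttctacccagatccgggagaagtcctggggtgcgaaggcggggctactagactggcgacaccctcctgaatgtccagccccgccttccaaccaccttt
The search found 1 E-box in Itga11, 2 in Itgb8, 1 in Itga1 and 0 in Itga10, and a CCAAT box in Itgb8. An E-box was in 66.2% and a CCAAT box in 33.8% of 32851 promoter windows of this length. None of these 4 windows held a GC box (GGGCGG, in 32.7% of all windows), a TATA box (TATAAA, 12.4%), an AP-1 motif (TGANTCA, 6.75%), a cyclic AMP response element (TGACGTCA, 1.55%) or a RUNX motif (TGTGGT, 14.0%), which says only that these letters are absent from these windows. Itga10 had 2 CpG dinucleotides and 48.0% G and C, where Itga11 and Itgb8 each had 12 and Itga1 had 10. The median over all windows was 6.

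Values are RMA expression on the log2 scale, where 1 unit is a doubling. They compare 1 gene between clones but not 1 gene with another, since each probe set has its own response. The 5 arrays have medians between 4.13 and 4.16, and their number limits the precision. As a measure of background, the 95th percentile of 1354 olfactory and vomeronasal receptor genes ran from 3.37 to 3.56 across arrays, and the 99th from 4.53 to 4.78. Sost read 4.08 in 12H and 3.92 in 15H against 3.78 to 3.91 in the low SOST clones, a difference of 0.14 (SE 0.07) that did not pass limma's test (adjusted p = 0.737). Of 12 osteoblast and osteocyte markers measured, 9 reached 6 in at least 1 clone, and the 12 averaged 7.47 in 12H, 7.34 in 15H and 4.41, 5.90 and 5.83 in 4L, 9L and 24L. Clone 4L stands apart in part of that list. In it Ibsp, a bone matrix protein, read 2.24 and Sp7, an osteoblast transcription factor, 2.68, where the other 4 clones read 8.35 or more and 7.05 or more. It was also the lowest clone for Alpl, Phex, Col1a1, Sost and Mepe, but not for Bglap, Dmp1, Dkk1 and Pdpn. Bglap read 3.74 in 4L and 3.45 in 24L, and Dmp1 2.76 in 4L and 2.54 in 9L. Fgf23 read the same in 4L as in 12H, 15H and 9L. The list's genes named by p were Phex, Dkk1, Dmp1 and Bglap, with differences of 3.90, 3.78, 3.86 and 2.04 (limma adjusted p 0.572 to 0.585). Pdpn (podoplanin), a marker of young osteocytes named after its values were seen, went the other way with no overlap, at 8.06 to 8.35 in the high and 8.97 to 9.20 in the low SOST clones (difference -0.92, SE 0.13, limma adjusted p = 0.572). Dmp1 and Phex, which mark osteocytes, were below the 95th receptor percentile in all 3 low SOST clones, and Sost lay between the 95th and the 99th in every clone.

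Of the 49 members, 14 reached a value of 6 in at least 1 clone, against 37.5% of all named genes, and 8 did so in all 5 clones. The 8 were Itga3, Itga5, Itgav, Itgb1, Itgb5, Cdh2, Cdh11 and Cdh24. The other 6 were Itga1, Itga6, Itga7, Itga10, Itga11 and Itgb8. Members over the 95th receptor percentile numbered 22 in 12H, 22 in 15H, 29 in 4L, 27 in 9L and 28 in 24L, and 20 members passed it in no clone. Those over it in at least 1 clone were 29 of 49, against 62.6% of all genes. By the stricter 99th percentile the numbers were 14 to 17 per clone. The 95th percentile itself was 3.548 in 12H and 3.558 in 15H, but 3.454, 3.415 and 3.366 in 4L, 9L and 24L. Cdh4, Cdh15 and Cdh26 passed it in the low SOST clones only, though each read 3.476 in 15H, 4L and 9L alike. Part of the gap in these counts between the groups thus comes from the cutoff.

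**Figure D1:**
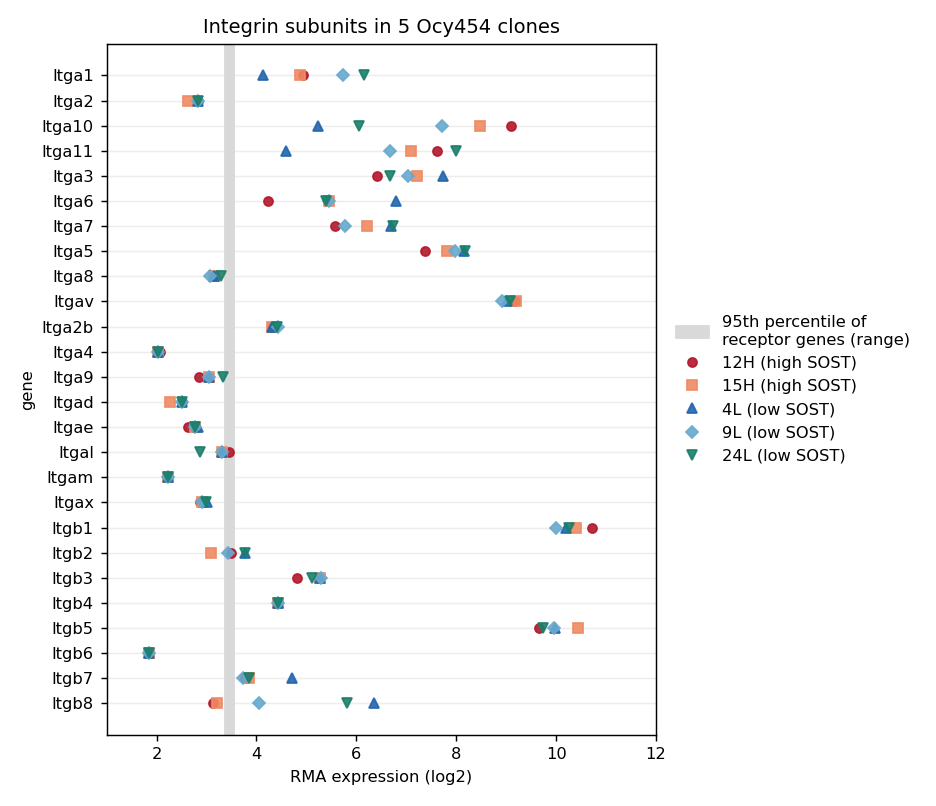
RMA expression (log2, horizontal axis) of the 26 integrin subunits in each of the 5 clones, 1 symbol per array, with the grey band giving the 95th percentile of receptor genes over the clones (3.37 to 3.56). The clones lie close together for Itgav (8.92 to 9.20), while Itga10, Itga11 and Itgb8 spread over more than 3 units.

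Among the collagen-binding alpha subunits, which all pair with beta 1, Itga10 had the widest difference between group means of any member. Itga10, a subunit best known from cartilage, read 9.10 in 12H and 8.47 in 15H, while 4L had 5.23, 9L 7.71 and 24L 6.04. Both high SOST clones lay above every low SOST clone, by 0.76 at the closest. The high SOST mean of 8.79 ± 0.45 (SD, n = 2) exceeded the low SOST mean of 6.33 ± 1.27 (SD, n = 3) by 2.46 (SE 0.88) or 5.50-fold, which did not pass limma's test (adjusted p = 0.737). Without clone 4L the difference was 1.91.

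Itga11, a collagen receptor of mesenchymal cells, read 7.61 in 12H, 7.10 in 15H, and 4L, 9L and 24L gave 4.59, 6.66 and 8.00. Here the highest clone belonged to the low SOST group and the lowest was 4L, and the groups overlapped. The difference of 0.94 (SE 1.16, limma adjusted p = 0.811) came down to 0.02 without clone 4L and was 1.73 without 24L. Itga1, which favours basement membrane collagen, read 4.92 and 4.87 in 12H and 15H, and 4L, 9L and 24L gave 4.13, 5.73 and 6.16. The high SOST clones thus lay between 4L and the other low SOST clones, with a difference of -0.45 (SE 0.72) over all clones, -1.05 without 4L, -0.25 without 9L and -0.04 without 24L. Itga2, the collagen subunit of platelets and epithelia, read 2.63 to 2.83, below the 95th receptor percentile in every clone. All 3 expressed collagen subunits thus had their lowest value in clone 4L.

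The laminin-binding subunits Itga3, Itga6 and Itga7 all had lower means in the high SOST clones, with a median difference of -0.50, and none of the 3 kept the groups apart. Itga6, a stem cell and epithelial subunit, read 4.23 in 12H, 5.44 in 15H, and 4L, 9L and 24L gave 6.80, 5.44 and 5.39. The difference was -1.04 (SE 0.67, limma adjusted p = 0.737), and leaving out a clone gave -0.44 (12H), -1.65 (15H) or -0.58 (4L). Clones 15H, 9L and 24L were nearly level for it, with 12H below and 4L above them. Itga3, which binds laminins of basement membranes, read 6.40, 7.22, 7.73, 7.02 and 6.67 in 12H, 15H, 4L, 9L and 24L. Its difference of -0.33 (SE 0.46) was 0.08 without clone 12H, so its direction rests on that clone, -0.03 without 4L, -0.74 without 15H and -0.57 without 24L. Itga7, the main laminin subunit of muscle, read 5.57 in 12H and 6.22 in 15H, where 4L had 6.69, 9L 5.77 and 24L 6.73. The difference was -0.50 (SE 0.43), and -0.18 without 12H, -0.82 without 15H, -0.82 without 9L and -0.33 without 24L. Clones 4L and 24L were its highest. Clone 4L read highest of all for Itga3 and Itga6, the opposite of its place for the collagen subunits.

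The RGD-binding subunits varied less, with ranges of 0.78 or less. Itga5, the fibronectin receptor subunit, read 7.38 in 12H and 7.81 in 15H, below 4L (8.16), 9L (7.98) and 24L (8.17). The groups did not overlap, and the means of 7.60 ± 0.30 (SD, n = 2) and 8.10 ± 0.11 (SD, n = 3) differed by -0.51 (SE 0.16, unadjusted p = 0.0385 and adjusted p = 0.737 by limma), and by -0.29 without clone 12H. Itgav, the alpha subunit of vitronectin and osteopontin receptors, read 9.18 in 12H and 9.20 in 15H, where 4L had 9.01, 9L 8.92 and 24L 9.08. The groups did not overlap here either, with a difference of 0.19 (SE 0.06, unadjusted p = 0.0354 and adjusted p = 0.737 by limma), or 1.14-fold. Itga8 read 3.07 to 3.29 and was below the 95th receptor percentile in every clone. Itga2b, the platelet subunit, read 4.30 to 4.42, over the 95th but not the 99th percentile.

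Among beta subunits, Itgb8 and Itgb2 were over the 95th receptor percentile in the low SOST clones only. Itgb1, Itgb3, Itgb4, Itgb5 and Itgb7 were over it in all 5. For Itgb2 the groups overlapped, since it read 3.485 in 12H and 3.421 in 9L. Clone 9L passed and 12H did not because their cutoffs were 3.415 and 3.548, and Itgb2 passed the 99th percentile in no clone. Itgb8, which pairs with alpha V and takes part in releasing active TGF-beta, read 3.13 in 12H and 3.22 in 15H, while 4L had 6.35, 9L 4.04 and 24L 5.82. Both high SOST clones were below the 95th receptor percentile of their arrays, and the low SOST clones all lay above theirs. Clones 4L and 24L also passed the 99th percentile, but 9L, at 4.04 against 4.62, did not. The high SOST mean, 3.17 ± 0.06 (SD, n = 2), differed from the low SOST mean, 5.40 ± 1.21 (SD, n = 3), by -2.23 (SE 0.81). With the high SOST clones set at their 95th receptor percentile, Itgb8 was 3.60-fold lower there than the low SOST mean. That percentile comes from other probe sets, so the fold is not a strict bound. Among the low SOST clones, 9L at 4.04 lay closest to that level. The measured difference did not pass limma's test (adjusted p = 0.737), and it was -1.76 without clone 4L and -2.91 without 9L.

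Itgb1, the shared partner of the collagen and laminin subunits, read 10.72 in 12H and 10.40 in 15H, where 4L had 10.20, 9L 9.99 and 24L 10.25. The groups did not overlap, and the difference was 0.41 (SE 0.14, unadjusted p = 0.0505 and adjusted p = 0.737 by limma), or 0.25 without clone 12H. Itgb5, a vitronectin receptor subunit, read 9.65 in 12H, 10.43 in 15H, with 4L, 9L and 24L at 9.98, 9.95 and 9.74. The high SOST clones were its lowest and its highest, and the difference of 0.15 (SE 0.27) turned to -0.24 without clone 15H, and was 0.54 without 12H and 0.07 without 24L. Itgb3, the osteoclast partner of alpha V, also reported in osteocytes, read 4.81 in 12H and 5.28 in 15H. Clones 4L, 9L and 24L gave 5.28, 5.29 and 5.11, and Itgb3 was over the 99th receptor percentile in every clone. Its difference was -0.18 (SE 0.17), 0.05 without clone 12H, whose value was the lowest, and -0.41 without 15H. Of the partners of alpha V, Itgb8 thus had the widest range over the clones (3.22), and Itgb6, the epithelial partner, gave the value 1.86 on all 5 arrays.

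The remaining integrins read low in every clone. The leukocyte alpha subunits Itgad, Itgae, Itgal, Itgam and Itgax spanned 2.22 to 3.45, and none of the 5 passed the 95th receptor percentile in any clone. Itga4 and Itga9, which bind VCAM-1, fibronectin splice forms and tenascin, spanned 2.04 to 3.33 and did not pass it either. Itgb2, the leukocyte partner, read 3.09 to 3.77. Itgb7, another leukocyte partner, read 3.74 to 3.84 in 4 clones and 4.70 in 4L. Itgb4, the hemidesmosome subunit, gave 4.44 on every array.

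**Figure D2:**
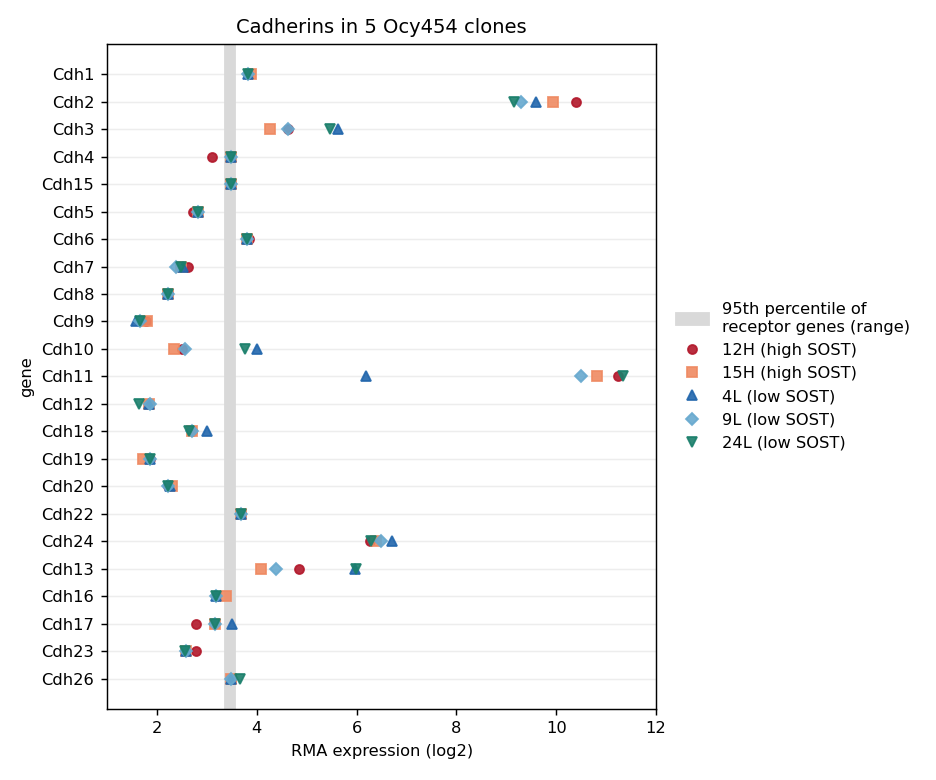
RMA expression (log2, horizontal axis) of the 23 cadherins in each of the 5 clones, 1 symbol per array, with the grey band as the 95th percentile of receptor genes over the clones (3.37 to 3.56). Cdh2, Cdh11 and Cdh24 reach 6 in every clone, and the symbol of clone 4L lies far below the others for Cdh11.

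Of the type I cadherins, Cdh2 was the member that read high. It read 10.40 in 12H and 9.93 in 15H, while 4L had 9.60, 9L 9.29 and 24L 9.16. The groups did not overlap. The means of 10.17 ± 0.33 (SD, n = 2) and 9.35 ± 0.23 (SD, n = 3) differed by 0.82 (SE 0.22) or 1.77-fold (unadjusted p = 0.0238 and adjusted p = 0.737 by limma), and by 0.58 without clone 12H and 1.06 without 15H. Cdh1, the E-cadherin of epithelia, read 3.82 to 3.88, and Cdh4 and Cdh15, the retinal and muscle cadherins, 3.11 to 3.48. Cdh3, the P-cadherin of basal epithelia, taken up after its values were seen, read 4.62 in 12H, 4.26 in 15H, with 4L, 9L and 24L at 5.62, 4.63 and 5.48. Its high SOST clones lay below the low SOST clones by 0.01 at the closest (difference -0.80, SE 0.38).

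Of the 13 type II cadherins, Cdh11 and Cdh24 reached 6. Cdh11 read 11.23 in 12H, 10.82 in 15H, 10.50 in 9L and 11.33 in 24L, and 6.19 in 4L. Clone 4L thus differed by -4.84 from the median of the other 4 clones, the widest deviation of any member in any clone. The group difference of 1.69 (SE 1.86, limma adjusted p = 0.811) was 0.11 without 4L and 2.68 without 24L, and in the full set clone 24L of the low SOST group read highest. Cdh24, a catenin-binding cadherin of broad expression, taken up after its values were seen, spanned 6.26 to 6.71 (difference -0.17, SE 0.15). Cdh10, a neural cadherin taken up in the same way, read 2.51 in 12H, 2.35 in 15H and 2.56 in 9L, all below the 95th receptor percentile, and 4.00 in 4L and 3.77 in 24L, which pass it but not the 99th. Cdh9, likewise taken up after its values were seen, had the smallest unadjusted p of all members by limma (0.0131, adjusted p = 0.734) but read 1.58 to 1.79, so its difference of 0.16 lies within background. The other 9 type II cadherins, Cdh5, Cdh6, Cdh7, Cdh8, Cdh12, Cdh18, Cdh19, Cdh20 and Cdh22, stayed under 4 with ranges of 0.37 or less.

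Among the cadherins outside these types, Cdh13, which has a lipid anchor in place of a tail and was taken up after its values were seen, read 4.84 in 12H, 4.08 in 15H, with 4L, 9L and 24L at 5.97, 4.38 and 5.99. Clones 4L and 24L were high and the other 3 low, and the groups overlapped (difference -0.99, SE 0.67). Cdh16, Cdh17, Cdh23 and Cdh26, cadherins of kidney, gut, inner ear and certain epithelia, read 2.56 to 3.66.

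**Figure D3:**
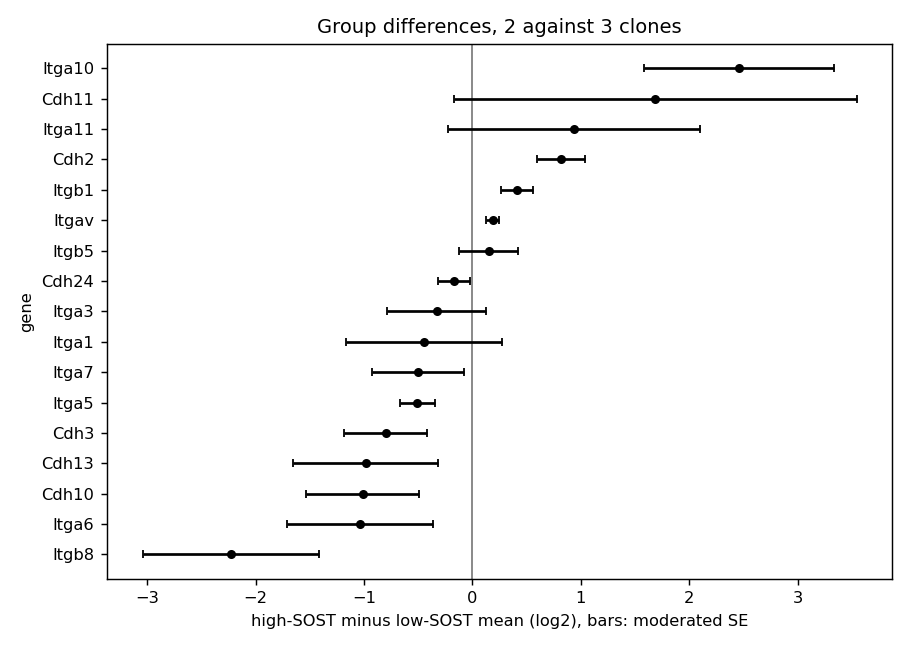
Mean of the 2 high SOST clones minus the mean of the 3 low SOST clones (log2, horizontal axis, points) with the moderated standard error of limma (bars) for the 14 members that reach 6 in a clone and Cdh3, Cdh10 and Cdh13. Itga10 lies at 2.46 and Itgb8 at -2.23, and Cdh11, at 1.69, has the widest error bar.

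Counted over the 49 members, 0 were higher and 0 lower in the high SOST clones at a limma adjusted p under 0.05, as for all named genes (0% in either direction). At an unadjusted p under 0.05, 3 members were higher (Itgav, Cdh2 and Cdh9), against 3.07% of all genes, and 1 was lower (Itga5), against 2.71%. Cdh9 was below background in every clone, and counts of 3 and 1 among 49 genes are too small to set apart from these shares. The share over all genes moves with the clone left out, and so did these counts. The lower count was 0 without 24L (2.76% of all genes), 5 without 9L (3.57%), 3 without 12H (4.35%), 4 without 15H (5.56%) and 2 without 4L (2.90%). The higher count was 2 without 24L (2.73%), 3 without 9L (3.61%), 4 without 12H (4.74%), 4 without 15H (7.83%) and 2 without 4L (2.94%). Of any size, 5 members were higher with no overlap between the groups (Itga10, Itgav, Itgb1, Cdh2 and Cdh9), against 8.26% of all genes, and 4 were lower (Itga5, Itgb8, Cdh3 and Cdh10), against 7.75%. With a difference of 2-fold or more as well, 1 was higher (Itga10, background 0.867%) and 2 were lower (Itgb8 and Cdh10, background 0.983%). Without 15H there were 2 higher (Cdh2 and Itga10, against 1.50% of all genes), and without 24L 3 higher (Cdh11, Itga10 and Itga11, against 1.03%) and 1 lower (Itgb8, against 1.09%). Without 9L 4 were lower (Cdh3, Cdh10, Cdh13 and Itgb8, against 1.63%) and without 12H 3 (Cdh10, Cdh13 and Itgb8, against 0.914%). Without 15H 2 were lower (Itga6 and Itgb8, against 2.04%), as were 2 without 4L (Itga1 and Itgb8, against 1.13%). Itga10 and Itgb8 were counted with each clone left out in turn. Groups that do not overlap stay so when a clone is removed, so only the 2-fold part could fail for these genes.

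By family, the median difference was -0.08 over the 18 alpha subunits, -0.09 over the 8 beta subunits and 0 over the 23 cadherins, beside 0 over all named genes. Among alpha subunits 5 differences were above and 12 below 0, among beta subunits 2 and 4, and among cadherins 10 and 10, the rest being exactly 0. In 6 members all 5 arrays gave 1 and the same value (Itgam, Itgb4, Itgb6, Cdh8, Cdh15 and Cdh22), as did 5.52% of all genes. These medians include many members near background. Among members at 6 or more in a clone, the median was -0.39 over 8 alpha subunits, with 3 above and 5 below 0. It was 0.15 over 3 beta subunits and 0.82 over 3 cadherins, with 2 above and 1 below 0 in each. No family thus moved one way as a whole, and the wide differences sit in single members of opposite sign.

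The members also differed in their spread over the clones. A range of 1 or more over the 5 clones was found in 12 of 49 members, against 11.7% of all genes, and a range of 2 or more in 6, against 2.98%. Among the 14 members that reached 6 in a clone, 9 had a range of 1 or more, against 21.0% of the genes that did so. Those shares were not tested, since members of a family are not independent samples.

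**Figure D4:**
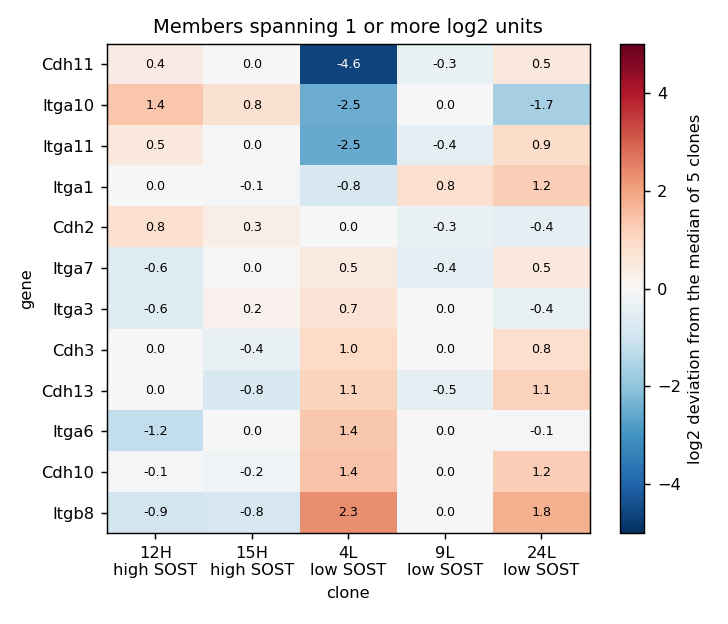
Deviation of each clone from the median of the 5 clones (log2, colour and printed value) for the 12 members with a range of 1 or more, ordered by clone 4L's deviation. Clone 4L is lowest for Cdh11, Itga10, Itga11 and Itga1 at the top and above the others' median for the members at the bottom, where 24L is often high as well.

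Among these 12 members clone 4L was the lowest clone for 4 (Cdh11, Itga10, Itga11 and Itga1) and the highest for 5, and clone 24L was the highest for 5. Clone 9L was neither the highest nor the lowest for any of the 12. In 4L, 9 of the 49 members lay 1 or more from the median of the other clones, where 3.58% of all genes did. In 24L the count was 6 against 2.04%, in 12H 3 against 2.81%, in 15H 3 against 1.50% and in 9L 1 against 1.54%. Clones 4L and 24L together lay above the other 3 for 5 members (Itga7, Itgb8, Cdh3, Cdh10 and Cdh13), and the pair of high SOST clones lay above the rest for 2 (Itga10 and Cdh2) and below for 3 (Itgb8, Cdh3 and Cdh10). The low reading of Cdh11, Itga10 and Itga11 in 4L goes with that clone's low Ibsp and Sp7, given above. Not all osteoblast and osteocyte markers were lowest in 4L, and the part of that difference in these results was not tested.

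Within the high SOST group the clones differed most for Itga6, where 12H minus 15H was -1.21, Itga3 (-0.82) and Itgb5 (-0.77). In the other direction it was 0.77 for Cdh13 and 0.63 for Itga10. With 1 array for each clone these differences have no replicate check. They are as wide as many of the differences between the groups.

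By position, 9 of the 49 members lie on mouse chromosome 8, and neighbours differed in how far the clones spread. Cdh8, Cdh11 and Cdh5 follow each other with 0 other protein-coding genes between them, and Cdh11 had a range of 5.15 while Cdh8 gave 2.22 on every array and Cdh5 ran from 2.73 to 2.83. Cdh3 and Cdh1 are direct neighbours too, and Cdh1 was nearly level across the clones over which Cdh3 ran from 4.26 to 5.62. On chromosome 13, Itga1 and its neighbour Itga2 had ranges of 2.03 and 0.20. Of the cadherins that follow each other on chromosome 15, Cdh6, Cdh9, Cdh10 and Cdh12, Cdh10 was the member with a range of 1 or more. The leukocyte integrins Itgam, Itgax and Itgad are neighbours on chromosome 7 and all read low. Of the neighbours with narrow ranges, Cdh8, Cdh5, Itga2, Cdh9 and Cdh12 passed the 95th receptor percentile in no clone. Cdh1 and Cdh6 passed it but not the 99th. Their narrow ranges thus lie at or near background.

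Of 34 integrin adaptors and activators measured, which carry adhesion signals inside the cell, 22 reached 6 in all clones. Their median difference was -0.03 and their median range over the clones 0.55. The median range was 0.28 over the 49 members, most of which read low, and 1.29 over the 14 members that reached 6 in a clone. Of the adaptors, 26 reached 6 in a clone. None passed limma's adjusted test (2 higher and 2 lower at an unadjusted p under 0.05, against 3.07% and 2.71% of all genes). A 2-fold difference with no overlap was found upward in 1 and downward in 1, against 0.867% and 0.983%. Apbb1ip (RIAM), which brings talin to integrins, read 5.70 in 12H and 6.64 in 15H where the low SOST clones had 7.98, 7.67 and 7.62 (difference -1.58, SE 0.34, limma adjusted p = 0.707). Kank1, which links talin to microtubules at the cell cortex, read 6.04 and 6.08 against 4.92, 4.08 and 5.63 (difference 1.18, SE 0.52). Of 19 cadherin catenins and junction partners, 11 reached 6 in all clones, with a median difference of 0. Of these 19, 0 passed limma's adjusted test (1 higher and 1 lower at an unadjusted p under 0.05, against 3.07% and 2.71% of all genes). The 1 member of that list at least 2-fold lower with no overlap (0.983% of all genes) was Cdhr1, a photoreceptor cadherin relative that read 6.18 in 4L and 3.24 to 3.47 in the other clones.

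Matrix ligands of integrins were the most variable of these lists, with a range of 1 or more in 22 of 30 genes measured. That range was found in 11.7% of all genes and in 21.0% of those that reached 6 in a clone, as 23 of the 30 did. None passed limma's adjusted test (1 higher and 2 lower at an unadjusted p under 0.05, against 3.07% and 2.71% of all genes). A 2-fold difference with no overlap was found upward in 4 and downward in 4, against 0.867% and 0.983% of all genes. The median difference was -0.11. The 4 higher were Adam12, Ibsp, Lama4 and Tnc, and the 4 lower Tgfbi, Edil3, Vcam1 and Col3a1. Ibsp, Lama4 and Tnc read lowest in 4L, at 2.24, 3.13 and 6.87, with differences of 4.945, 2.44 and 1.61. Against 9L and 24L alone these were 2.70, 0.95 and 0.73. Tgfbi, an RGD protein that binds collagen, read 3.83 in 12H and 6.02 in 15H where 4L had 7.82, 9L 8.73 and 24L 8.70 (difference -3.49, SE 0.81). Edil3, an RGD ligand of alpha V, read 5.15 and 3.19 against 6.82, 6.66 and 8.15 (difference -3.04, SE 0.86). Vcam1, the counter-receptor of alpha 4 beta 1, differed by -2.39 (SE 1.15), and Adam12, a metalloprotease with a disintegrin domain, by 2.57 (SE 0.32). The limma adjusted p of Adam12 was 0.572 and that of Tgfbi, Edil3 and Vcam1 was 0.737.

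**Figure D5:**
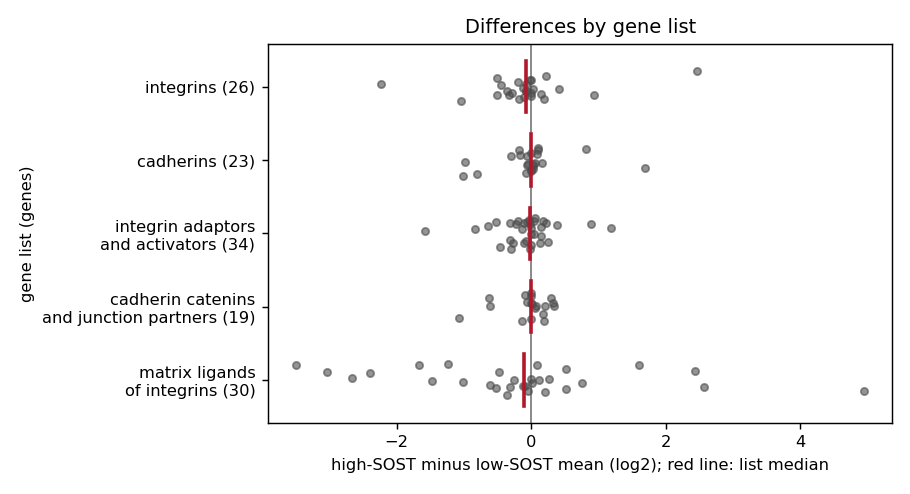
Differences between the group means (log2, horizontal axis, 1 point per gene) for integrins, cadherins and the 3 lists of partner genes, with the list median as a red line and a small vertical scatter for legibility. All 5 medians lie between -0.11 and 0, and the matrix ligands spread most widely.

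Markers of other cell types were measured beside the integrins and cadherins that those cells carry. Of 14 leukocyte and platelet markers measured, 4 passed the 95th receptor percentile in each clone and the list averaged 3.12 to 3.20 over the clones. Ptprc, which defines leukocytes, read 1.78 to 1.91, and the smallest p of the list belonged to Fcer1g (difference 0.33, SE 0.17) and Pf4 (-0.11, SE 0.05). Of these markers Cd68, a lysosomal protein, was the gene that reached 6 in a clone (6.97 in 4L and 6.13 in 15H). Of 11 endothelial markers 0 reached 6, with list means of 3.03 to 3.27, 4 over the 95th receptor percentile in at least 1 clone and 1 in all, Pecam1 at 2.55 to 3.04, and differences of -0.21 for Flt1 and -0.79 for Erg, which read 5.54 in 24L. Of 12 epithelial markers 0 reached 6, with list means of 3.41 to 3.49 and Epcam, which defines epithelia, at 1.83 to 1.92. However, 6 of the 12 passed the 95th receptor percentile in every clone, and the keratins Krt8 (4.91 to 5.11) and Krt14 (4.78 to 5.46) passed the 99th in every clone. The smallest p of the list came with differences of 0.10 for Krt18 and 0.28 for Cldn4. Of 9 skeletal muscle and neural markers 1 reached 6, the intermediate filament gene Des, at 5.83 in 12H, 6.16 in 15H and 4.05, 5.47 and 4.69 in 4L, 9L and 24L, and the list averaged 3.77 to 4.09. Of these 9, 5 passed the 95th receptor percentile in every clone, and Myog, a muscle transcription factor, passed the 99th (4.65 to 4.79). The part of these markers in the members' values was not tested.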

How the data were processed

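Deposited values are log2 expression per probe set for 5 arrays, and the submitters' processing notes list RMA, affy (version 1.36.1) and R (version 2.15.1) without saying what each did. No source used here gives the chip definition, filters or genome build. RMA brings arrays to 1 distribution, so a shift shared by most genes is lost. Of 25206 probe sets, 23185 carried 1 gene symbol and the other 2021 were not used. Members were taken by platform symbol. The members and lists were chosen with earlier results of these data known.

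The group difference of every named gene was fitted by lmFit and eBayes (no trend, not robust) of limma 3.58.1, under R 4.3.3. Tests were two-sided, p-values were adjusted by Benjamini and Hochberg's method across the 23185 genes, and the threshold was 0.05. The fit has 3 residual and 0.70 prior degrees of freedom. With 1 array per clone, p-values measure only the spread between clones. Permuting 2 against 3 clones exactly could give no p below 0.1. No overlap means that every high SOST clone lay on 1 side of every low SOST clone. Folds are powers of 2 of log2 differences.

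Values in every clone were given for members at 6 or more in a clone with a range of at least 1 or a difference of at least 0.5, for 7 members known from bone cells, and for others as stated. From each list up to 4 genes with the smallest p at a difference of at least 1, or else 2 with the smallest p, were named, and others, chosen after their values were seen, where a count or a level called for it. Gene order came from RefSeq, assembly GRCm38.p6, as did the promoter windows. List entries without a matching symbol were not analysed here. The fitting step was tested on simulated data. Figures used matplotlib 3.10.9 in Python 3.11.15.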

Additional observations from a re-analysis of the deposited data

How the results depend on the processing

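The 14 members named by rule were refitted under 11 alternatives: arrays shifted to 1 median, quantile normalization again, the dimmest 30% of genes left out, a variance trend with robust settings, array weights, an unmoderated test, and each clone left out in turn. Of 154 combinations 151 kept direction and side of the threshold and 3 turned: Itga3 to 0.08 and Itgb3 to 0.054 without 12H, and Itgb5 to -0.24 without 15H. As no named member passed the threshold under any setting, the 151 say only that the sign held, not the size. Without 4L the difference of Cdh11 fell from 1.69 to 0.11 and that of Itga11 from 0.94 to 0.02. That of Itga1 went from -0.45 to -0.04 without 24L. With a clone left out Itga3 ranged from -0.74 to 0.08, Itgb3 from -0.41 to 0.054 and Itgb5 from -0.24 to 0.54. The lowest limma adjusted p of a named member under any alternative was 0.179. Members lower at an unadjusted p numbered 1 as reported, 2 with arrays at 1 median, 2 with quantile normalization again, 0 with the unmoderated test and 0 to 5 with a clone left out. With a clone left out, 1 to 3 members were at least 2-fold higher without overlap and 1 to 4 lower. The median difference then ran from -0.10 to -0.043 for alpha subunits and from -0.20 to 0 for beta subunits. Without the dimmest genes, where dim members have no value, it was -0.18 for beta subunits and -0.030 for cadherins. Against the 99th receptor percentile, members above background numbered 14 (15H), 15 (4L), 15 (9L) and 17 (24L). The cause of these changes was not tested, beyond the fewer genes or clones by construction. Leaving out 12H or 15H leaves 1 high clone, whose spread is then taken from the low clones. Members near the receptor genes' level are limited by background, and 5 arrays limit all precision.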
